A study of Mus musculus with 9 samples.

Results

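Genes of the Wnt and Notch pathways were followed through a transposon screen of Sonic hedgehog (SHH) medulloblastoma, a tumour of the cerebellum, in Lazy Piggy mice. The 60 genes were chosen by symbol alone, from 22353 symbols to which the deposited table assigns insertion positions, and no measured value entered the choice. They comprise 19 Wnt ligands, 10 Frizzled receptors, the 2 co-receptors Lrp5 and Lrp6, the destruction complex genes Apc, Axin1 and Axin2, and Ctnnb1. Also among them are 4 TCF and LEF factors, 5 TLE corepressors, 4 Notch receptors, 6 Notch ligands, Rbpj and 3 Mastermind coactivators. Mamld1 and Jagn1 entered through the start of their symbols and are not core Notch genes.

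Wnt ligands bind Frizzled receptors and Lrp5 or Lrp6, which keeps the destruction complex from degrading beta-catenin, the product of Ctnnb1. Beta-catenin then enters the nucleus and replaces TLE corepressors on TCF and LEF factors. In Notch signalling, a ligand on one cell triggers the cutting of the Notch receptor on its neighbour, and the freed inner part joins Rbpj and Mastermind at target genes. In the cerebellum Notch2 is known for keeping granule neuron precursors dividing, and activating CTNNB1 mutations mark a human medulloblastoma subgroup other than SHH.

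The Lazy Piggy element carries Sleeping Beauty (SB) and piggyBac (PB) parts, and 3 kinds of library were made from the genomic DNA of each tumour. IR libraries start from the SB ends, PB libraries from the PB ends, and JX libraries from the boundary of both parts, each with a left (L) and a right (R) end. The groups were 72 tumours of Lazy Piggy mice given tamoxifen and 47 of Lazy Piggy mice not given it, with the element starting from chromosome 10 in 53 and 37 of them and from chromosome 7 in 19 and 10. The labels give every lane the same genotype and tissue. The sources used here do not give the strain's alleles and promoters or the ages of the mice, and DNA shows no cell type markers. Tumours are called T1 to T72 with tamoxifen and U1 to U47 without, where the number is only a name. The table held 555006105 counts in 832 libraries from 9 lanes. Median counts per tumour, both ends summed, (with tamoxifen, then without) were 3115000 and 3144000 for IR, 441800 and 287400 for JX and 205000 and 217000 for PB. A site was called in a tumour from 10 counts upwards, provided it reached 1% of that tumour's highest site of the same kind of library. Positions are those of the mouse build mm9, and the gene and gene part of each are those the table lists.

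In lane 4, the L-end JX libraries went against their labels. For 102 IR sites of this lane that held at least 1% of a tumour's counts, 0 had their highest L-end JX share in the library labelled with the same tumour, and 100 had it in the library of 1 fixed partner tumour of the lane. The 16 tumours of the lane fell into 8 such pairs, such as U2 with U28 and U27 with U34, and 3 pairs joined tumours of different arms. With the R end, 101 of the 102 sites were highest in their own tumour, and in the other lanes the L end matched its own tumour at 582 of 589 sites. These L-end libraries held 79.97% of the JX counts of the lane. The numbers of tumours and genes hit in JX, and the single JX sites of lane 4, are therefore given with and without them. The share of JX sites with an IR count and the orientation labels are given with them only.

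Called sites fell in 24 of the 60 genes and 36 had none. In IR, 10 genes were hit (16.7%, against 6.35% of all symbols), 19 in JX (31.7% against 16.4%) and 9 in PB (15% against 7.83%). The median number of tumours hit per gene was 0 in every kind of library, for these genes and for all symbols, and the means were 0.20 against 0.0774 (IR), 0.383 against 0.224 (JX) and 0.167 against 0.0969 (PB). Hits were mostly single, with 1 gene called in 2 or more tumours in IR (1.67%, against 0.747% of all symbols), 3 such genes in JX (5% against 3.77%) and 1 in PB (1.67% against 1.06%). A position called in several tumours counted for 1 of them only, which limits these numbers. Across the 60 genes the number of tumours hit was higher for genes with more positions listed at any count (Spearman's rho 0.304 in IR, 0.404 in JX and 0.242 in PB, as a description of genes from the same libraries). Gene lengths in mm9 were not used here.

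**Figure D1:**
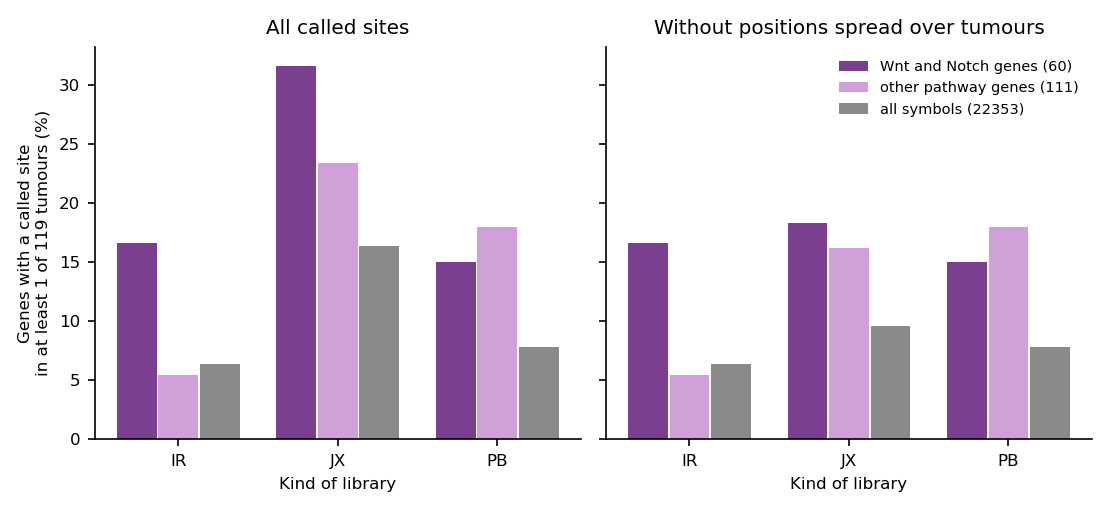
Percentage of genes with a called site in at least 1 of 119 tumours, by kind of library, for the 60 Wnt and Notch genes, the 111 other pathway genes and all 22353 symbols, with every called site (left) and without positions whose counts are spread over tumours (right). The JX bar of the Wnt and Notch genes falls from 31.7% to 18.3% between the panels, and that of all symbols from 16.4% to 9.62%.

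Of the 50 called sites in these genes, 36 lay in introns, 7 upstream, 6 downstream and 1 in an exon. These numbers were not set against those of all called sites. On the chromosome the element started from lay 8 sites, 2 of 14 in IR, 4 of 25 in JX and 2 of 11 in PB. For the called sites of all symbols these numbers were 465 of 1853, 829 of 5255 and 587 of 2419. Tumours with a called site in the 60 genes numbered 5 of 72 with tamoxifen (6.94%, exact 95% interval 2.29% to 15.5%) and 4 of 47 without (8.51%, 2.37% to 20.4%) in IR. In PB they numbered 6 (8.33%, 3.12% to 17.3%) and 3 (6.38%, 1.34% to 17.5%). In JX they numbered 13 (18.1%, 9.98% to 28.9%) and 7 (14.9%, 6.20% to 28.3%). Without the L-end libraries of lane 4 the JX shares were 13.9% and 17.0%, so the order of the arms in JX turned. The intervals of the arms overlap in each kind of library, and no p is given over the list.

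Dner was the gene hit in the most tumours in IR and one of the 3 genes hit in more than 1 tumour in JX. It encodes a transmembrane protein with Delta-like repeats that is prominent in Purkinje cells and can act as a Notch ligand. Called IR sites in Dner were found in 3 tumours with tamoxifen, T16, T47 and T46, and in 0 of 47 without, a count that allows a share of up to 6.38% by the limit of 3 tumours of 47 (exact 95% limit 7.55%). In T16 a site at chr1:84587818, in intron 1, held 2.16% of the tumour's IR counts (39896 counts), and a site at chr1:84587935 held 1.22% (22626 counts). They lie 117 bp apart and carry opposite orientation labels, and the table does not tell whether they are 1 insertion or more. In T47 a site at chr1:84580869, in intron 2, held 1.52% (18595 counts). The 2 sites of T46, at chr1:84663709 and chr1:84642102 in intron 1, held 0.130% and 0.0652%.

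The sites of T16 and T47 were present in the other kinds of library too. JX counts at both T16 positions made up 0.871% and 0.924%, and at the T47 position 0.300%. In PB, T16 had called sites at chr1:84587706 (0.442%) and chr1:84588025 (0.477%), on either side of its IR pair. T47 had 1759 PB counts at chr1:84580657, which fell just short of a call at 0.966% of its highest PB site. In T46 the nearest JX counts to its Dner sites lay 752815 and 731208 bp away. Outside the tamoxifen arm, U20 had a called JX site in intron 11, at chr1:84388394, with 0.185% (729 counts), and no called IR site there. The 3 strongest IR sites of Dner thus belong to 2 tumours, and span 7.07 kb.

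**Figure D2:**
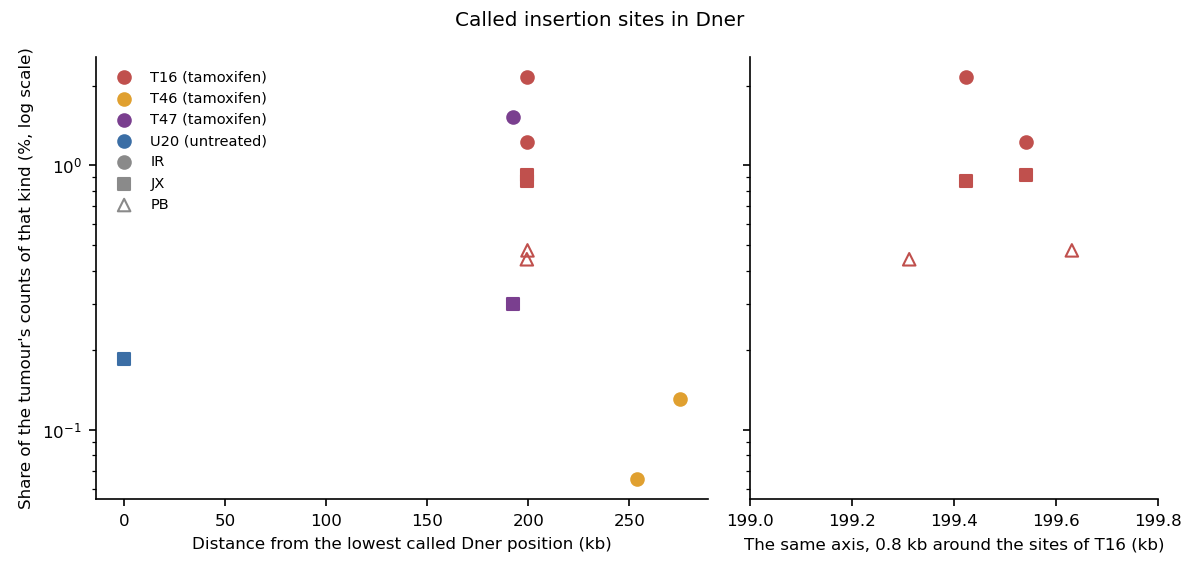
Called insertion sites in Dner, with the distance from the lowest called position (kb) against the share of the tumour's counts of that kind of library (%, log scale). Colours give the tumour and symbols the kind of library, and the right panel widens 0.8 kb around the sites of T16. The sites of T16 and T47 lie together and those of T46 and U20 lie apart and lower.

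T16 and T47 were both sequenced in lane 1, had chromosome 7 as donor and were listed with 164 and 211 days, where the sheet does not say what the days count. At the positions of T16, the next highest tumour held under 0.2% of the T16 count in each kind of library. T46 was in lane 2, with donor chromosome 10 and 88 listed days. It had the most called IR sites of all 119 tumours (334, median 12) and the lowest IR depth of its arm (295999 counts). At any count, Dner was listed in 44 of 72 tumours with tamoxifen and 32 of 47 without in IR. The median share was 5.0e-05% and 6.2e-05%, and the highest was 3.38% and 0.00795%, so the medians lay close together and the highest shares did not. Dner has 221 listed IR positions, second to Maml3 with 236 among the 60 genes, and it has the most in JX (50) and in PB (105).

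Two-sided Fisher's exact tests compared tumours hit with and without tamoxifen for each gene hit in at least 3 tumours, with Benjamini-Hochberg adjustment over all genes tested. The share of genes called was 0% of 40 in IR, 0% of 244 in JX and 0% of 55 in PB, and 0, 2 and 1 genes had an unadjusted p under 0.05. Dner was the only Wnt or Notch gene hit often enough to be tested. In IR the exact test of Dner gave a difference of 4.17 percentage points (Newcombe 95% interval -3.87 to 11.6) and a p of 0.277 (adjusted 0.739). In JX Dner was hit in 2 and 1 tumours, a difference of 0.65 points (-8.56 to 7.67) with an exact p of 1 (adjusted 1). A gene hit in 3 tumours cannot fall below p 0.0592 with these arms. Without T46, Dner has 2 tumours in IR and is not tested. Both arms were present in each of the 9 lanes, and Dner was hit in IR in 2 of 7 tumours with tamoxifen and 0 of 5 without in lane 1 and in 1 of 11 and 0 of 4 in lane 2. An exact test within lanes, added after seeing the data, gave p 0.274 for Dner in IR (adjusted 1) and called 0 genes in each kind of library, with 0, 4 and 3 genes at an unadjusted p under 0.05.

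**Figure D3:**
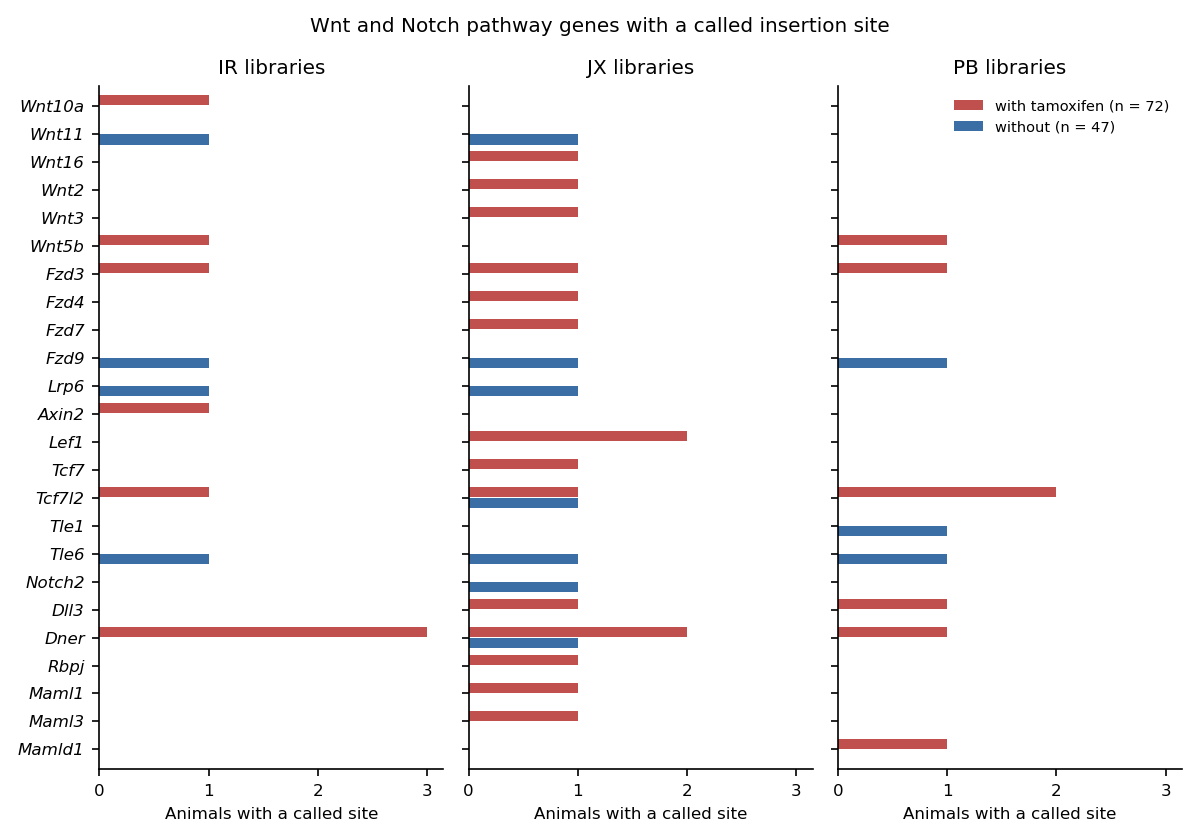
Number of tumours with a called site in each of the 24 Wnt and Notch genes hit, in IR, JX and PB libraries, with tamoxifen (red, n = 72) and without (blue, n = 47). Dner reaches 3 tumours in IR, all with tamoxifen, and most other bars stand at 1.

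The other Notch genes had fewer or weaker sites. Dll3, which encodes a ligand that blocks Notch signalling within the cell, had a JX site in T53 at chr7:29086618, in intron 1, with 0.373%. A PB site of T53 lay 46 bp away with 0.270%, on the donor chromosome of this tumour. T53 also had 787 IR counts at the JX position (0.0406%), below the call. No called site fell in the ligand genes Dll1, Dll4, Jag1 and Jag2. Of the receptors, Notch1, Notch3 and Notch4 had none, and Notch2 had 1 in JX at a position shared by many tumours. The Notch1 position with the highest share was in intron 12 in T59, with 1736 IR counts (0.0877%). Mamld1 had a PB site in T43, in intron 2 at chrX:68369386, with 0.474%.

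On the Wnt side, the highest shares lay in 3 untreated tumours. Tle6, a member of the TLE corepressor family, had the site with the highest share of all 60 genes. In U2 it held 18.4% of IR counts (464073 counts, the second highest of 7 called sites) at chr10:81063320, in intron 1, on the donor chromosome of U2. PB counts in U2 were called 95 bp away, at chr10:81063225, with 3.41%. At the same position U2 had 0.382% of JX counts, and because U2 belongs to lane 4 the ends were read apart: U2 had 1 L-end and 3042 R-end counts, and its partner U28 had 1982 and 2. Without the L-end libraries the Tle6 site held 2.47% of the JX counts of U2 and was its highest JX site.

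The receptor genes followed. Fzd9, a Frizzled gene, had a site 19.949 kb upstream in U39, at chr5:135746866, with 5.86% of IR counts (197341 counts), 0.532% of JX counts and a PB site 109 bp away with 1.81%. Lrp6, which encodes the co-receptor that carries the Wnt signal into the cell, had a site in intron 12 in U5, at chr6:134422854. It held 5.50% of IR counts (148685 counts) and 3.10% of JX counts, and the nearest PB count of U5 lay 29 bp away. The highest PB position of U5 in Lrp6, at chr6:134422673 with 107 counts (0.0493%), was not called. These 3 genes each had called sites in 1 tumour, and each site was among the 7 highest IR sites of its tumour. Among tumours with tamoxifen the highest IR share in the 60 genes was 2.16%, in Dner, so the sites of Tle6, Fzd9 and Lrp6 lay above every one of them. With 4 untreated tumours hit in IR, this order of arms was not tested.

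**Figure D4:**
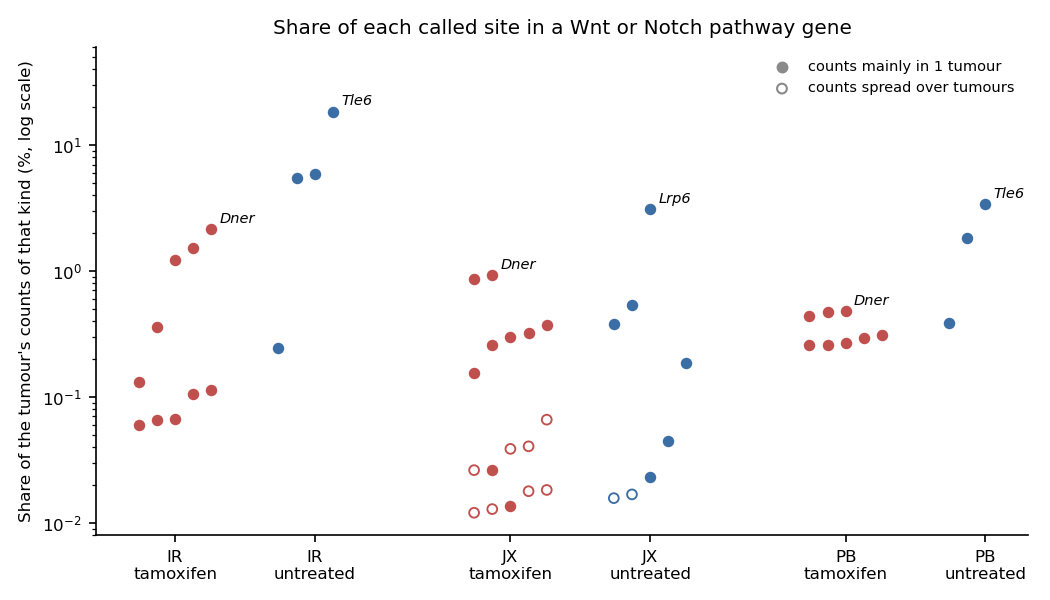
Share of the tumour's counts (%, log scale) at each called site in a Wnt or Notch gene, by kind of library and arm (red with tamoxifen, blue without). Open circles are JX positions whose counts are spread over tumours, and they lie between 0.0120% and 0.0659%. The highest IR points are Tle6, Fzd9 and Lrp6 in untreated tumours and Dner with tamoxifen.

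Fzd3 had called sites of all 3 kinds in T26, in intron 4 around chr14:65838027, with 0.358% of IR, 0.320% of JX and 0.307% of PB counts, the last resting on 35 counts 451 bp away. Another tumour, T3, listed 41 PB counts at that PB position. Wnt11, a ligand known for signalling without beta-catenin, had a site in intron 4 in U27, at chr7:106001076, with 0.245% of IR counts, on the donor chromosome. In JX the position had 122 R-end and 0 L-end counts in U27, and 1253 L-end and 0 R-end counts in its partner U34. A second JX site of U27 lay 20.727 kb downstream of Wnt11 and showed the same division, with 62 R-end counts in U27 and 35 L-end counts in U34. Fzd7 had a JX site in T30, 56.904 kb upstream, which rests on 518 L-end counts of lane 4 and is not called without them. Without those libraries a JX site of Fzd6 in U2 is called (41 counts, 0.0333%), so that 19 of the 60 genes are hit in JX either way, with Fzd6 in place of Fzd7.

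Tcf7l2, which encodes one of the factors that bring beta-catenin to DNA, was hit in 1 tumour in IR, 2 in JX and 2 in PB. T46 had an IR site in intron 4 at chr19:55919060 with 0.106% (314 counts) and PB counts 98 bp away with 0.258% (44 counts), and T9 had a PB site in intron 7 with 0.295% (31 counts). Both JX sites of Tcf7l2 lay at positions shared by many tumours. Lef1, another such factor, had called JX sites in T65 and T46, the latter in intron 3 with 26 counts (0.0136%). Tcf7 had a JX site 1.656 kb upstream in T4 (0.260%), and Tcf7l1 had none. Tle1 had a PB site in U41 (0.384%), and Tle2, Tle3 and Tle4 had none.

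The genes of the destruction complex and beta-catenin were nearly free of called sites. Axin2 had 1, an IR site 61.206 kb downstream in T46 with 199 counts (0.0672%), and Apc, Axin1 and Ctnnb1 had none in any kind of library. For each gene without a call, 0 of 47 untreated tumours allows a share of up to 6.38% and 0 of 72 with tamoxifen one of up to 4.17%, by the limit of 3 tumours (exact 95% limits 7.55% and 4.99%). Below the call, the Ctnnb1 position with the highest share was in intron 1 in T18, with 439 JX counts (0.0773%). The position of Axin1 with the highest share was in intron 5 in T47 with 287 PB counts (0.0527%). Apc had counts of 2 kinds in exon 16 of U46, with 704 IR counts (0.0258%) and, 92 bp away, 83 PB counts (0.142%), which at 0.954% of its highest PB site fell just short of a call.

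Of the Wnt ligands, 13 of 19 had no called site. Besides Wnt11, Wnt5b had an IR site in T46 (0.113%) and a PB site in T53 (0.256%). Wnt10a had an IR site in T3 (0.0598%) and Wnt16 a JX site in T3 (0.0263%), both downstream, and Wnt2 and Wnt3 were hit at shared positions only. Lrp5 and the receptor genes Fzd1, Fzd2, Fzd5, Fzd6, Fzd8 and Fzd10 had none. Over the 36 genes without a call, the highest share of any listed position was 0.137% in IR (Wnt7a in T9), 0.179% in JX (Wnt2b) and 0.142% in PB (Apc).

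In JX, 10 of the 25 called sites lay at positions whose counts were spread over tumours (40%, against 45.96% of all called JX sites), meaning that at least 3 tumours listed the position and none held over 50% of its counts. No IR or PB site of these genes did. All sites of Fzd4, Maml1, Maml3, Notch2, Rbpj, Wnt2 and Wnt3 were of this type, as were all JX sites of Tcf7l2. This leaves 11 genes hit in JX (18.3%, against 9.62% of all symbols). Without such positions, 8 tumours with tamoxifen (11.1%) and 5 without (10.6%) had a JX site in the 60 genes. Without the L-end libraries of lane 4 as well, these became 7 (9.72%) and 5 (10.6%), so the order of the arms turned here too, and 11 genes were hit.

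The position in Wnt2, in intron 3 at chr6:17967775, had JX counts in 69 of 72 tumours with tamoxifen, 43 of 47 without and 4 of 9 control DNAs. It held at most 0.0516% of any compared tumour's JX counts and had 0 PB counts in all. Rbpj, whose product is the DNA-binding partner of the cut Notch receptor, had JX counts 14.285 kb downstream, at chr5:54062969, in 35, 31 and 4. The Lef1 position, 198.357 kb upstream, was listed in 30, 24 and 5, that in intron 1 of Maml3 in 30, 18 and 4, and that in intron 4 of Tcf7l2 in 48, 16 and 1. The Notch2 position, in exon 17 at chr3:97921126, had JX counts in 8 tumours with tamoxifen, 11 without and 0 control DNAs. At 9 of the 10 positions control DNAs had counts too. A call at such a position counts for the tumour with the highest share among those that called it. At Rbpj the untreated U8 had a higher share (0.0548%) than the credited T6 (0.0405%). At Wnt2 the untreated U5 had a higher share (0.0516%) than the credited T72 (0.0386%). In U8 and U5 these positions fell below 1% of the highest JX site and were not called. Without the L-end libraries of lane 4, the tumour credited at Rbpj becomes U27 in place of T6, and at Wnt2 U34 in place of T72.

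**Figure D5:**
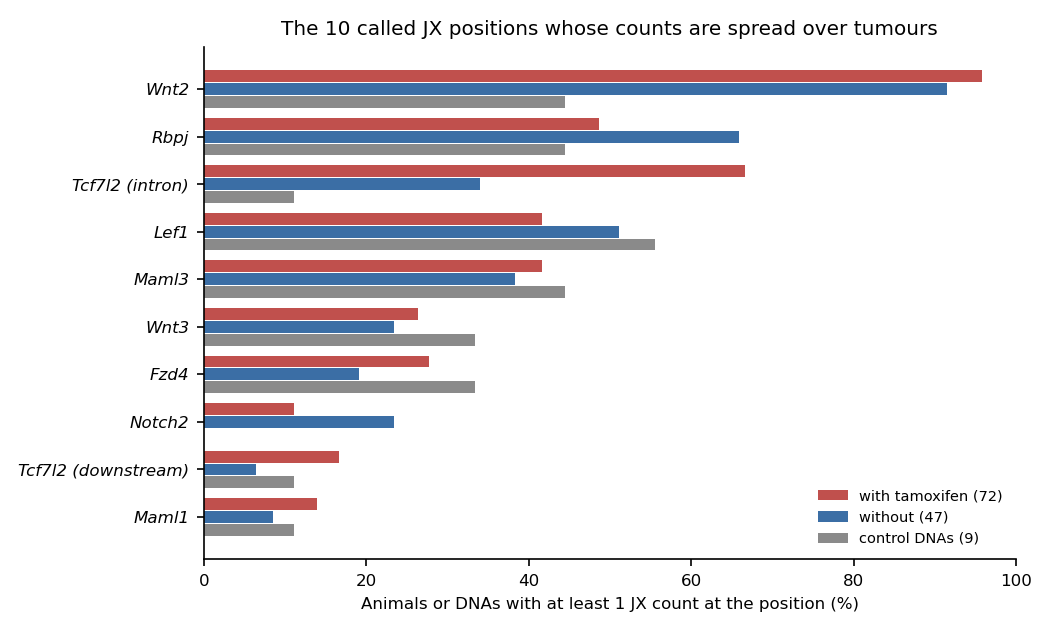
Percentage of tumours with tamoxifen (red, 72), tumours without (blue, 47) and control DNAs (grey, 9) with at least 1 JX count at each of the 10 called JX positions whose counts are spread over tumours. Wnt2 is listed in 69 of 72 and 43 of 47 tumours, and control DNAs list every position except that of Notch2.

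Hits were gathered in tumours with many called sites. In all, 23 tumours had a site in these genes, 15 with tamoxifen (20.8%) and 8 without (17.0%), counted with the L-end libraries of lane 4. Without those libraries T6, T30 and T72, all with tamoxifen, had no called site in these genes, and the untreated U34 was added through Wnt2. The order of the arms in this total then turned. With those libraries, sites in 5 tumours, all with tamoxifen, lay in 2 or more of these genes: T46 in 5 genes, T65 in 3, all at shared positions, and T3, T26 and T53 in 2 each. Without them, 2 untreated tumours also had sites in 2 genes each, U2 in Tle6 and Fzd6 and U27 in Wnt11 and Rbpj. Tumours with an IR site in these genes had a median of 27 called IR sites, against 12 over all 119. In JX the medians were 80 and 23, and in PB 48 and 12. T46, with 334 called IR sites, and T3, with 689 called JX sites, had the most of their kinds. The part of this number in the count of hits was not tested.

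Of the 14 IR sites in these genes, 8 had a JX count of the same tumour within 100 bp (57.1%, exact 95% interval 28.9% to 82.3%), against 82.3% of all 2311 called IR sites. The 5 sites of T46 had none, and without T46 the count was 8 of 9 (88.9%, 51.8% to 99.7%). For JX sites with an IR count the shares were 64.0% and 65.8%, and for PB sites with an IR or JX count 63.6% and 60.3%. Orientation relative to the gene could be tested with 6 or more sites, for 14 genes (IR), 34 (JX) and 17 (PB), and none was a Wnt or Notch gene. The exact binomial test called 7.14%, 0% and 0% of these genes. At positions with at least 10 counts of both ends, the ends carried different labels in 99.6% of cases in JX and 99.5% in PB, so a label there follows the end read. In IR they differed at 36.5% of 21555 such positions, so IR labels are not free of this either.

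Control samples had called sites in these genes too. Of 9 control DNAs, 3 had 20 called JX sites in 9 of the genes, each with at most 0.0721% of counts, and none had a called IR or PB site. A position called in several control DNAs was counted in each of them, such as that of Wnt2 in all 3. In the compared tumours such a position counted once, so the numbers of sites cannot be set side by side. Of 5 control tumours, 1 had a called IR site, at the shared Wnt2 position with 0.0395%.

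Other genes of both pathways were counted from a further list of 117 names, of which 111 were in the table. Called sites fell in 6 of them for IR (5.41%), 26 for JX (23.4%, or 28 and 25.2% without the L-end libraries of lane 4) and 20 for PB (18.0%). The same shares of the 60 genes were 16.7%, 31.7% and 15%, and these differences were not tested. Prickle2, which encodes a planar polarity protein, had called sites in 2 untreated tumours and 0 with tamoxifen in each kind of library. U11 held 55.9% of its IR counts, 10.4% of its JX counts and 16.2% of its PB counts in exon 8, with IR and JX at chr6:92325552. U27 held 7.60% of IR counts in intron 7 at chr6:92357971 and 4.32% of PB counts nearby. The JX site there was called in its lane 4 partner U34 (4.74%), and without the L-end libraries in U27 (1.54%). Cntn1, a ligand-like gene, was hit in 4 and 0 tumours in JX (exact p 0.152, adjusted 1), with 3 of 4 sites at shared positions. Tnik, a kinase gene that acts with TCF factors, was hit in 3 and 0 in JX (exact p 0.277, adjusted 1), with 1 of the 3 sites at a shared position. Without the L-end libraries of lane 4 that position counts for the untreated U30, and Tnik was hit in 2 and 1 (exact p 1, adjusted 1). Cntn6 in JX and Csnk1g1 in PB were hit in 1 tumour of each arm. The Cntn6 site of the untreated U40 lay at a shared position, listed in 111 tumours.

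Chosen after their values were seen, 2 further genes held the highest IR site of a tumour. Psen2, which encodes a catalytic subunit of the protease that cuts Notch receptors, held the highest site of T17 in all 3 kinds of library. At chr1:182175153, in intron 2, it took 19.1% of IR and 38.5% of JX counts, and 54.1% of PB counts lay 30 bp away. A site 95.647 kb upstream of Hey1, a Notch target gene, held 20.4% of the IR counts of T52. The table's assignment of so distant a site to Hey1 says nothing of an effect on it. Each of these sites was counted for 1 tumour only, so neither gene was tested. Other tumours had counts at the same positions. At the Psen2 position 21 other tumours listed JX counts, the highest being the untreated U21 with 3518 (0.595%). At the Hey1 position 8 others listed IR counts, the highest being the untreated U38 with 5521 (0.103%).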

How the data were processed

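The authors deposited 1 table of raw counts per insertion position and library, whole numbers with no scaling. The submitters' processing notes name mm9 as the build. Aligner, annotation and filters are not named in the sources used here. Arm, donor chromosome, lane and days came from the authors' sample sheet. The animal was the replicate: both ends and repeat lanes (7 animals) were summed per kind of library, and 1 ID spelled in 2 ways was joined. The 8 animals without a usable arm and the controls entered no test.

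Positions within 10 bp were merged, and a site that several animals called counted for the one where its share was highest. Shares carry counting error and amplification error, since counts without molecular identifiers are not molecules. Tests used scipy 1.17.1 and were tested on simulated data. Named genes were those hit in the most tumours, with the highest shares or with 2 kinds of library within 100 bp, and 8 fixed ones (Ctnnb1, Apc, Axin1, Axin2, Notch1, Notch2, Rbpj, Lef1). The remaining genes with a call are named for completeness. The genes, lists and rules were chosen with earlier results of these data known. The check of labels in lane 4 was added after seeing the data. No sequence is shown, since no mm9 genome was used here.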

Additional observations from a re-analysis of the deposited data

Results flagged for a closer look

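Animals without a usable arm label entered no comparison, and 5 of their sites in these genes stood above the control samples. N4, one of these 8 animals, had a PB site in intron 1 of Lrp5, at chr19:3679404, with 0.924% of its PB counts (74 counts). N5 had a PB site in exon 2 of Fzd4, at chr7:96555936, with 0.327% (58 counts). Neither position was called in a compared tumour. At the shared Wnt2 position in JX, N4 held 0.0468% and N8 held 0.0514%, and at the shared Rbpj position N5 held 0.0214%.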

How the results depend on the processing

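With sites called from 0.1% of the highest site, the tumours hit (with tamoxifen, then without) came to 26.4% and 21.3% for IR, 45.8% and 42.6% for JX and 30.6% and 48.9% for PB. The arms thus changed order in IR and in PB. At this setting 35, 37 and 38 of the 60 genes were hit (58.3%, 61.7% and 63.3%, against 34.99%, 46.1% and 40.5% of all symbols). From 5% the tumours hit were 2.78% and 4.26% in JX and 0% with tamoxifen in PB, so the arms changed order in both. At 5%, 4, 4 and 2 genes were hit (6.67%, 6.67% and 3.33%, against 3.21%, 5.29% and 2.50% of all symbols). Gene bodies alone left 6 genes in IR (10%, against 3.955% of all symbols), and JX without shared positions 11 (18.3% against 9.62%). Donor chromosome 10 alone left 4 in PB (6.67% against 5.31%). Donor chromosome 7 alone left 3 in IR (5% against 1.83%) and 5 in JX (8.33% against 4.59%). With donor chromosome 7 alone, 15.8% of tamoxifen tumours were hit in IR and 21.1% in PB. PB sites with an IR or JX count were 9.09% within 10 bp and 90.9% within 1000 bp, and IR sites with a JX count were 88.9% without T46, chosen after seeing the data. The 1 gene called for orientation in IR became 0 at 0.1%, at 5%, merged within 100 bp, off the donor chromosome, with donor chromosome 7 alone and without the animal with the most sites, and 2, with 20 in JX, where sites were kept in every animal. Fisher's test called 0 genes under every alternative run, and so did the exact test within lanes. Fisher's test took in 7 (IR), 11 (JX) and 10 (PB) of the 60 genes at 0.1%, with a lowest unadjusted p of 0.0592 (Wnt11 in PB). With sites kept in every animal it took in 4 of them in JX, with a lowest unadjusted p of 0.242 (Wnt2). No paired analysis was possible because tumours of both arms share no replicate numbers.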
